A study of Mus musculus with 12 samples.

Results

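The Serpina1 and Serpina3 cluster genes covered here are 10 of the 24537 genes in the liver RNA-Seq table. They were chosen by symbol as Serpina1a to Serpina1e and Serpina3f, Serpina3g, Serpina3k, Serpina3m and Serpina3n. The family was selected on earlier results of these same livers, with the effect of caloric restriction (CR) in view. The differences between CR and control (Con) mice are therefore given for the 10 genes as a description, without p-values. Of the 10 genes, 9 passed the filter on low values, which asked for 1 FPKM or more in 3 or more libraries. FPKM are read counts over exons, divided by the length of the exons and by the size of the library.

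The livers came from 12 male C57Bl/6J mice, 6 weeks old at the start and housed singly, with 3 mice in each of 4 groups. Con mice were fed ad libitum with no restriction, and CR mice received 30% less food. One Con and one CR group had been on their diet for 25 days (d25) and one of each for 30 days (d30). The CR mice were given a fortified version of the Con diet, daily at noon, so the diets differed in composition and feeding time as well as in amount. The hour at which livers were taken is not given in the sources used here. Diet formula, feeding time and food amount cannot be told apart in this design.

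Between 15748840 and 23345320 reads were recovered per library from the steps of low FPKM values, and 78.1% to 84.3% of them lay on exons. The 5 hepatocyte markers (Alb, Ttr, Apoa1, Cyp2e1 and Cps1) summed to 39176 to 54029 FPKM in Con mice and to 54892 to 66223 FPKM in CR mice. Each library was thus dominated by hepatocyte RNA. Bile duct markers summed to at most 4.12 FPKM and neutrophil markers to at most 1.44 FPKM in any liver. Stellate cell markers summed to 44.3 to 56.5 FPKM in Con and 59.6 to 75.8 in CR livers, and sinusoidal endothelial markers to 31.8 to 47.3 and 41.4 to 52.2. The part of these shifts in the results was not tested.

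Serpins are proteins that trap a protease after it cuts an exposed loop near their C-terminal end, the reactive centre loop. Serpina1 genes encode forms of α1-antitrypsin, a plasma protein made mainly by hepatocytes. The human protein inhibits neutrophil elastase, and the target of each mouse copy was not tested here. Humans have 1 such gene, whereas the mouse carries several copies. Serpina3 genes encode relatives of human α1-antichymotrypsin, and these too have multiplied in the mouse. Serpina3k is known as contrapsin, Serpina3n as an acute-phase inhibitor of granzyme B, and Serpina3g as a cathepsin inhibitor of immune cells.

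In the table, which uses the mm10 build, all 10 genes lay on chromosome 12. The 5 Serpina1 genes were on the minus strand, in the order Serpina1b (chr12:103728156-103738189), Serpina1d (chr12:103763587-103773633), Serpina1a (chr12:103853295-103863619), Serpina1c (chr12:103894926-103904950) and Serpina1e (chr12:103946932-103956897). The 5 Serpina3 genes followed on the plus strand, with Serpina3f (chr12:104214544-104221129), Serpina3g (chr12:104214544-104241934), Serpina3k (chr12:104338486-104345739), Serpina3m (chr12:104387164-104394257) and Serpina3n (chr12:104406708-104414329). The span of Serpina3g holds that of Serpina3f. Their transcripts had 20 exact windows of 100 bases in common, 1.03% of those of Serpina3f and 1.17% of those of Serpina3g.

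Among the 5 Serpina1 genes, the difference between CR and Con mice was by far the largest for Serpina1e. The sequence around their start sites is shown first, and its part in this difference was not tested. RefSeq promoters (GRCm38.p6) were at hand for 8 of the 10 genes, without Serpina3k and Serpina3m. In an alignment of the 5 Serpina1 promoters, each pair had 238 bases aligned. A block of 140 bases of this alignment, a length set for display, is shown. It lay at chr12:103863595-103863734 for Serpina1a, chr12:103738170-103738309 for Serpina1b, chr12:103904932-103905071 for Serpina1c, chr12:103773604-103773743 for Serpina1d and chr12:103956930-103957069 for Serpina1e, all on the minus strand. Capitals mark bases that differ from the base most of the 5 genes share at that position.
Serpina1a: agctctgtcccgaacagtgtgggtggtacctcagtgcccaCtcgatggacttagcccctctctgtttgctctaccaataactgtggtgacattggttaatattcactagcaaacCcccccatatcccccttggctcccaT
Serpina1b: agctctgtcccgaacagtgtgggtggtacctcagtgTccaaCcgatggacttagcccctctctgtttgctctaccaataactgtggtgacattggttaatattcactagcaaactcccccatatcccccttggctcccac
Serpina1c: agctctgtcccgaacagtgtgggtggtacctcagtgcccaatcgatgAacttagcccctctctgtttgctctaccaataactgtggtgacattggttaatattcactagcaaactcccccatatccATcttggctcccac
Serpina1d: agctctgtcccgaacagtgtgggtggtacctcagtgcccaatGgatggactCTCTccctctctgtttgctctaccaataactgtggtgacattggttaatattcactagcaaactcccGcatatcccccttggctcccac
Serpina1e: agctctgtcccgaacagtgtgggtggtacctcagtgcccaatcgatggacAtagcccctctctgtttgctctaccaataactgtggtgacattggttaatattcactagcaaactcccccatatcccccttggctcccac

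Serpina1e differed from the shared bases at 1 position of this block, Serpina1b at 2, Serpina1a and Serpina1c at 3 each and Serpina1d at 6. The annotated start of Serpina1e was placed differently from the others. In Serpina1e the block ended 32 bases before the start, whereas it ran 19 to 30 bases past the start in the other 4 genes. Over the 238 aligned bases, the promoters of Serpina1b and Serpina1e were the most alike, with 4 differences and 98.3% identity. Those of Serpina1c and Serpina1d were the least alike, with 19 differences and 92.0% identity.

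The C/EBP motif TTGCNNAA, where N is any base, was matched on either strand in 4 of the 5 Serpina1 promoters, against 10.8% of the 32851 RefSeq promoters, and not in that of Serpina1c. The match began 24 bases after the annotated start in Serpina1a. In Serpina1b, Serpina1d and Serpina1e it began at -161, -149 and -211 from the start. Serpina3f had 2 matches. The STAT motif TTCNNNGAA was matched in the promoters of Serpina3f and Serpina3g and in 8.30% of all promoters. In Serpina3f its match overlapped that of the IRF repeat GAAANNGAA, a motif held by 8.56% of all promoters. The TATA box TATAAA (13.6% of all promoters) was matched in 1 of the 2 promoters listed for Serpina3f. A match of letters is a description and not a shown site of binding.

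The coding sequences of the 5 Serpina1 genes, each 1242 bases long in GENCODE M21 (GRCm38), were 96.3% to 98.5% identical in pairs. Serpina1a and Serpina1c were the closest pair. Of the 1242 aligned positions, 86 differed between the 5 genes. The 60-base stretch with the most differences held 18 of them, against an average of 4.16 per stretch of this length. It ran from coding base 1101 to 1160, in exon 5, the last coding exon, towards the 3′ end where the reactive centre loop is encoded. It lay at chr12:103853757-103853816 for Serpina1a, chr12:103728324-103728383 for Serpina1b, chr12:103895094-103895153 for Serpina1c, chr12:103763762-103763821 for Serpina1d and chr12:103947100-103947159 for Serpina1e, on the minus strand. It is shown because it is where reads tell the copies apart best. Capitals mark bases that differ from the base at least 3 of the 5 genes share, or positions where no base is shared by 3.
Serpina1a: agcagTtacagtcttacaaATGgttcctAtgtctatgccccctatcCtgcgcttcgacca
Serpina1b: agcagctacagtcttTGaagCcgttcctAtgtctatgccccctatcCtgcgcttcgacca
Serpina1c: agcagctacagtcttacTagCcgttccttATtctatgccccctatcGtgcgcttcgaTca
Serpina1d: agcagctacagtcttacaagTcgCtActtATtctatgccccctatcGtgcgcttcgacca
Serpina1e: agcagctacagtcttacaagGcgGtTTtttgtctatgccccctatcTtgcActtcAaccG

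Serpina1e carried 8 capitals in this stretch, the most of the 5 genes, and Serpina1b carried 5. Reads were paired and 100 bases long. As a guide to how far single reads can be assigned, exact 100-base windows that a transcript shared with other genes were counted. The windows leave out the mate of a read, and the GENCODE transcripts differ in length from the exons behind the FPKM. For Serpina1e, 18.2% of windows occurred in a transcript of another gene. The share was 26.4% for Serpina1b, 29.3% for Serpina1d, 58.5% for Serpina1c and 61.0% for Serpina1a. Most of the shared windows of Serpina1a and Serpina1c were shared between these 2 genes, with 732 in each. In the Serpina3 group the share was 0.204% for Serpina3n and at most 6.09%, for Serpina3m, whose 95 shared windows were all shared with Serpina3k. How reads that map to more than 1 place were treated is not given in the sources used here. Values of Serpina1a and Serpina1c are therefore less certain than those of Serpina1e and of the Serpina3 genes.

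**Figure D1:**
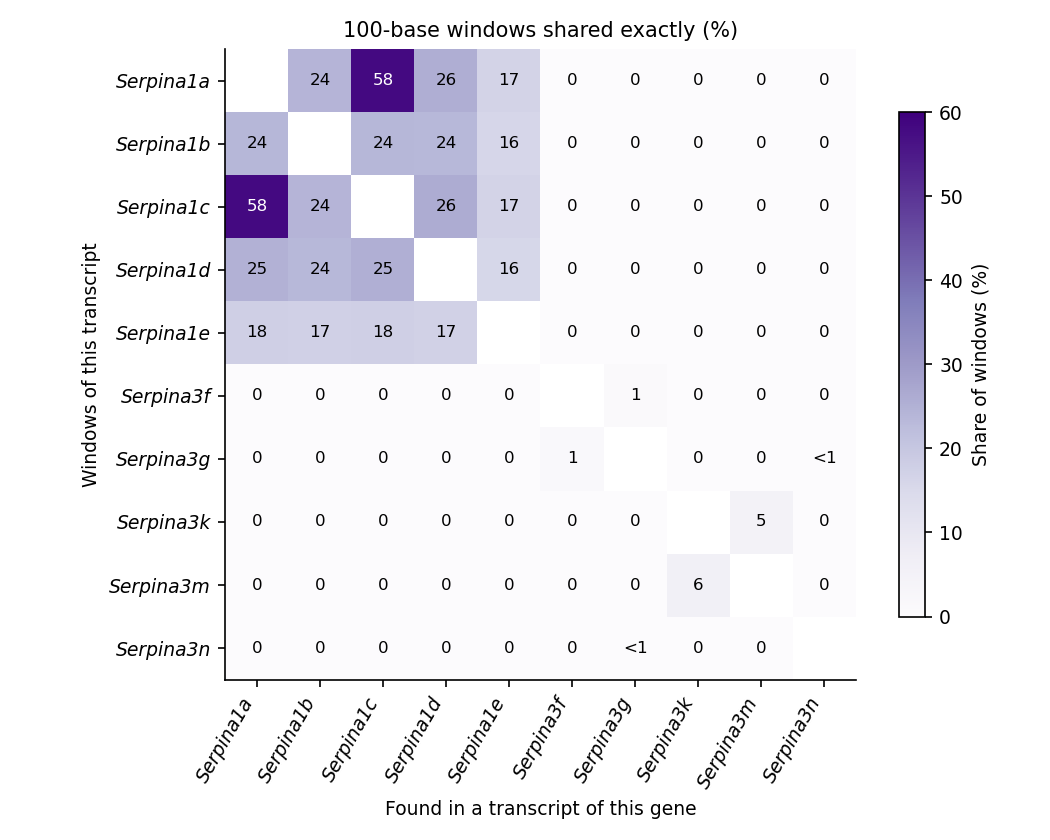
Share (%) of the exact 100-base windows of each gene's transcript (rows) that also occur in a transcript of another member (columns). Darker cells mark a larger share. Serpina1a and Serpina1c shared 58.0% of their windows, Serpina1e shared 17.2% to 17.6% with each other Serpina1 gene, and no Serpina1 gene shared a window with a Serpina3 gene.

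Serpina1e mRNA was the member that differed most between CR and Con mice. Its FPKM in Con mice at d25 were 3958, 3723 and 2497. In CR mice at d25 they were 718, 1620 and 111 in replicates 1 to 3. At d30 they were 3986, 3119 and 2627 in Con mice. In CR mice at d30 they were 6.81, 121 and 44.3 in replicates 1 to 3. Every CR liver was below every Con liver at both time points. The Con groups overlapped each other, whereas the CR mice ranged widely, with a 14.5-fold span at d25 and a 17.8-fold span at d30.

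The mean of Serpina1e was 3393 ± 784 FPKM in Con and 816 ± 759 in CR mice at d25 (SD, n = 3 each). At d30 it was 3244 ± 688 in Con and 57.5 ± 58.4 in CR mice. CR livers thus held 24.1% of the Con level at d25 and 1.77% at d30, which is 56.4-fold lower. The log2 fold change of FPKM + 1 was -2.71 (SE 0.94) at d25 and -6.51 (SE 0.94) at d30. These values rest on 217 to 3224 recovered reads per CR liver at d30, against 80920 to 111511 in Con livers. In the liver with 217 reads, the other 4 Serpina1 genes summed to 4818 FPKM, within their range of 4645 to 4860 in Con mice at d30. In CR replicates 2 and 3 at d30 they summed to 4354 and 4319 FPKM, below that range. In whole tissue, fewer cells that express a gene cannot be told apart from less RNA per cell.

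The makeup of α1-antitrypsin mRNA differed between the diets. Serpina1e made up 34.0% to 44.8% of the summed Serpina1 FPKM in Con mice at d25 and 36.1% to 45.2% in Con mice at d30, where it was the largest of the 5 in every liver. It made up 2.36% to 23.9% in CR mice at d25 and 0.141% to 2.71% in CR mice at d30. Serpina1b was then the largest, at 30.4% to 45.7% at d25 and 42.0% to 49.4% at d30. The summed FPKM of the 5 genes averaged 8328 in Con and 5643 in CR mice at d25, and 8026 and 4554 at d30. Without Serpina1e the averages were 4935 and 4827 at d25 and 4782 and 4497 at d30. The difference between the summed levels thus lay mostly in Serpina1e.

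**Figure D2:**
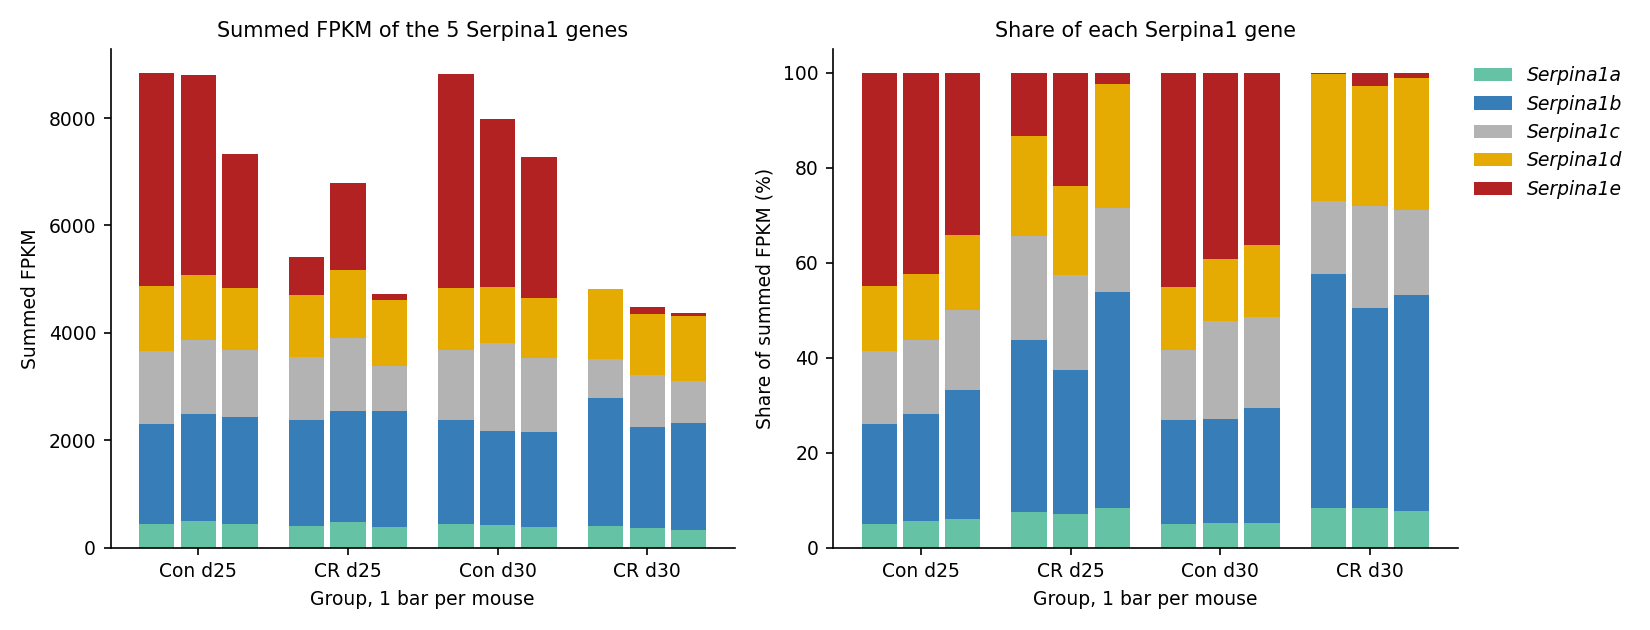
Summed FPKM of the 5 Serpina1 genes (left) and the share of each gene in that sum (right, %), with 1 bar per mouse and 3 mice per group. Serpina1e (red) took 34.0% to 45.2% in the 6 Con livers and 0.141% to 2.71% in the CR livers at d30, while the sum of the other 4 genes averaged 4497 to 4935 FPKM over the groups.

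Serpina1c was the other α1-antitrypsin copy whose CR livers all lay below the Con livers at d30. Its FPKM were 1363, 1373 and 1245 in Con and 1183, 1358 and 832 in CR mice at d25. At d30 they were 1312, 1643 and 1386 in Con and 736, 965 and 778 in CR mice. The groups overlapped at d25 and not at d30. At d30 the CR mean was 57.1% of the Con mean, with a log2 fold change of -0.81 (SE 0.17), against -0.27 (SE 0.17) at d25. Without CR replicate 3 at d25, the value at d25 was -0.06. The level of Serpina1c was set by reads of which many windows fit Serpina1a as well, and the part of this sharing in its difference was not tested.

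Serpina1a, Serpina1b and Serpina1d overlapped between Con and CR mice at both time points. Serpina1a was at 449 to 507 FPKM in Con and 392 to 481 in CR mice at d25, and at 385 to 440 and 334 to 401 at d30. Its exon length in the table was 1717 bases, against 1360 in the GENCODE transcript of the same RefSeq entry, and a longer length gives a lower FPKM. Serpina1b was at 1853 to 1985 in Con and 1964 to 2156 in CR mice at d25, and at 1743 to 1933 and 1880 to 2383 at d30. Serpina1d was at 1160 to 1224 and 1147 to 1264 at d25, and at 1050 to 1155 and 1130 to 1298 at d30. The log2 fold changes of the 3 genes lay between -0.14 and 0.09 at d25 and between -0.17 and 0.20 at d30. For Serpina1d at d25, the value of 0.02 changed sign in 3 of 22 alternative settings.

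**Figure D3:**
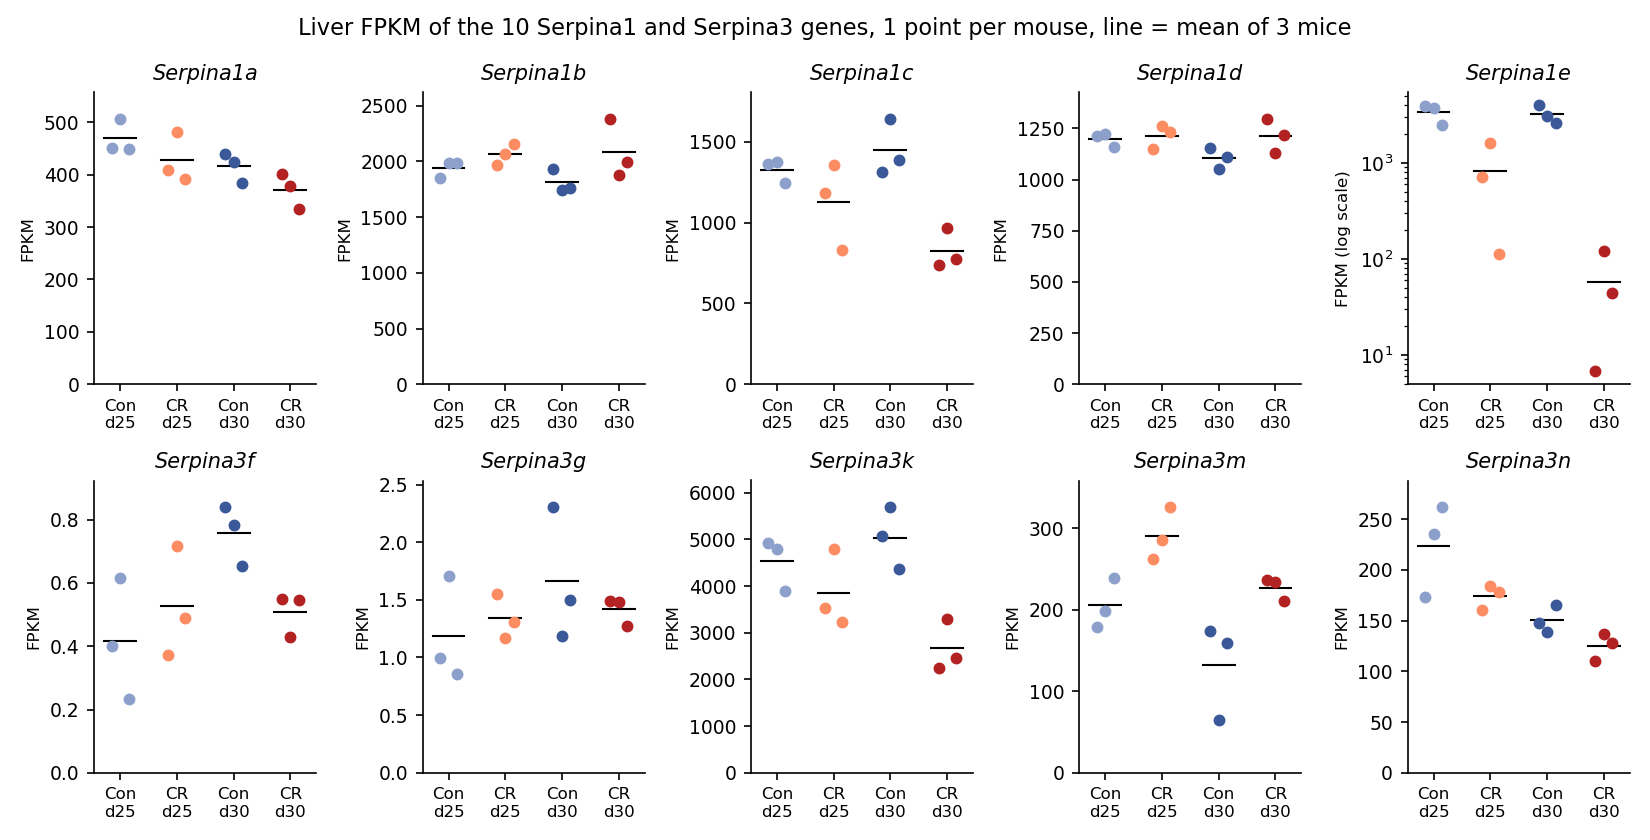
FPKM of the 10 genes in each liver, with 1 point per mouse and a line at the mean of the 3 mice of a group. The axis of Serpina1e is logarithmic and the others start at 0. At d30 all CR livers were below all Con livers for Serpina1c, Serpina1e, Serpina3f, Serpina3k and Serpina3n, and above them for Serpina3m.

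Serpina3k, the contrapsin gene, had the highest mean FPKM of the family in every group. Its exon length in the table was 1645 bases, against 2057 in the GENCODE transcript used here, and a shorter length gives a higher FPKM. In Con mice Serpina3k measured 4915, 4786 and 3898 FPKM at d25 and 5064, 5692 and 4360 at d30. In CR mice it measured 3534, 4799 and 3226 at d25 and 2249, 3303 and 2451 at d30. The groups overlapped at d25, and every CR liver was below every Con liver at d30. The CR mean at d30 was 52.9% of the Con mean. The log2 fold change was -0.25 (SE 0.18) at d25 and -0.93 (SE 0.18) at d30, just short of the required fold of 1 on the log2 scale.

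Serpina3m was the only member above the Con range in all CR mice at both time points. Its FPKM were 178, 199 and 239 in Con and 262, 285 and 326 in CR mice at d25. At d30 they were 174, 64.6 and 160 in Con and 237, 234 and 210 in CR mice. One Con liver at d30 was well below the other Con livers. The CR mean was 142% of the Con mean at d25 and 171% at d30, with log2 fold changes of 0.51 (SE 0.28) and 0.89 (SE 0.28). Without that liver the value at d30 was 0.44, and over the other settings it lay between 0.85 and 1.15.

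Serpina3n, an inhibitor that rises in the acute phase, was at 173, 235 and 262 FPKM in Con and 160, 184 and 178 in CR mice at d25. At d30 it was at 147, 139 and 166 in Con and 111, 137 and 128 in CR mice. The groups overlapped at d25, and at d30 the highest CR liver was just below the lowest Con liver. The log2 fold change was -0.34 (SE 0.15) at d25 and -0.27 (SE 0.15) at d30. Without Con replicate 1 at d25, the value at d25 was -0.51.

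Serpina3g and Serpina3f were near the limit of detection. Serpina3g ranged from 0.855 to 2.31 FPKM in Con and from 1.17 to 1.55 in CR mice over both time points, or 29 to 95 reads per liver. Its groups overlapped at both time points, with log2 fold changes of 0.12 at d25 and -0.12 at d30, the latter with a sign that 1 of 21 alternative settings turned. Serpina3f did not pass the filter and was at 0.233 to 0.84 FPKM, or 8 to 35 reads. At d30 it measured 0.84, 0.783 and 0.654 FPKM in Con and 0.548, 0.43 and 0.547 in CR mice, a difference of a few reads between livers.

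**Figure D4:**
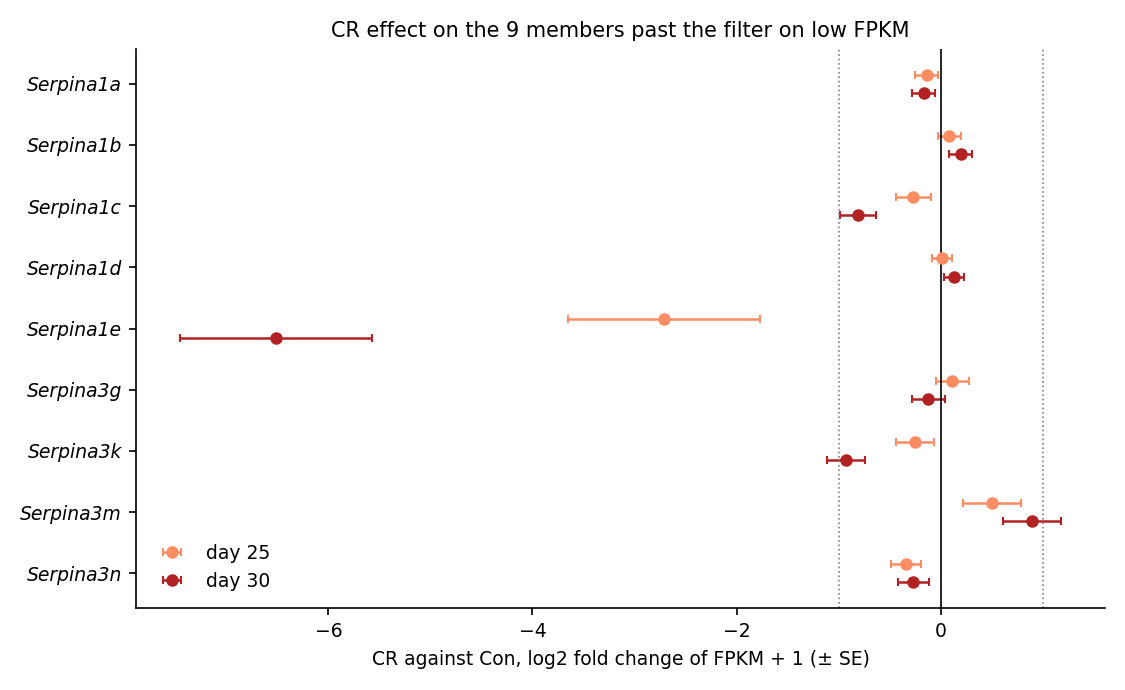
Log2 fold change of FPKM + 1 (horizontal axis, ± SE from the limma model) between CR and Con mice for the 9 members past the filter, at d25 (orange) and d30 (red). Dotted lines mark a log2 fold change of 1 in either direction. Serpina1e lies at -2.71 and -6.51, and no other member passes the dotted lines.

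By level per exon length, the order in Con mice at d25 was Serpina3k, Serpina1e, Serpina1b, Serpina1c, Serpina1d, Serpina1a, Serpina3n, Serpina3m, Serpina3g and Serpina3f. Serpina3k overlapped Serpina1e, Serpina3n overlapped Serpina3m, and the other neighbours down to Serpina3g did not overlap. In CR mice at d30, Serpina1e came after Serpina3n and before Serpina3g in this order, and its range overlapped that of Serpina3n. Among all 24537 genes, the mean FPKM of Serpina1e ranked 11 in Con mice at d25, 66 in CR mice at d25, 15 in Con mice at d30 and 882 in CR mice at d30. Serpina3k ranked 10, 10, 8 and 14. Together the 10 genes took 2.19% to 2.72% of the exon reads in Con and 1.61% to 2.19% in CR mice at d25. At d30 they took 2.28% to 2.69% in Con and 1.36% to 1.53% in CR mice.

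A gene was called at a Benjamini-Hochberg adjusted p under 0.1 in limma together with a log2 fold change of at least 1. By this rule 1 of the 9 members, Serpina1e, was called at d25, where 1.48% of the 10593 tested genes were called. At d30 the same 1 member was called, against 2.21% of all tested genes. Since the family was chosen with these contrasts in view, the counts describe it and support nothing. By the adjusted p alone, Serpina1e passed at d25, where 14.9% of all genes passed. At d30 Serpina1c, Serpina1e, Serpina3k and Serpina3m passed, against 24.7% of all genes.

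The median log2 fold change of the 9 members was -0.14 at d25 and -0.17 at d30, against -0.04 and -0.07 over all tested genes. At d25 the CR and Con ranges did not overlap for 2 of the 9 members, against 28.2% of tested genes. Of these members 1 was below Con, against 18.0% of tested genes, and 1 above, against 10.2%. At d30 they did not overlap for 5 of the 9, against 36.4% of tested genes, with 4 below, against 24.3%, and 1 above, against 12.1%. The call of Serpina1e at d25 was close to the threshold. It was kept in 3 of 12 models that left out a single liver, those without CR replicate 2 at d25 or without CR replicate 1 or 2 at d30, and was lost in the other 9. Without CR replicate 3 at d25 its log2 fold change at d25 was -1.62. At d30 it was called in all 12, while Serpina3k was also called without CR replicate 2 at d30, Serpina3m without 1 of the Con livers (that with 5064 FPKM of Serpina3k), and both without another (that with 4360 FPKM).

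The CR effect on Serpina1e was larger at d30 than at d25 by -3.80 on the log2 scale (SE 1.33). The corresponding differences were -0.54 (SE 0.24) for Serpina1c and -0.68 (SE 0.26) for Serpina3k. No member passed the thresholds for this difference in limma, where 0.00944% of tested genes passed and 366 had an unadjusted p under 0.05. With voom on recovered reads, no gene passed and 346 had an unadjusted p under 0.05.

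The contrasts between time points within a diet were not named in the choice of the family, and their p-values are given. They use the same livers as the CR effects that were in view, so they are not independent of that choice. In Con mice none of the 9 members passed, and of all tested genes 0% passed in limma. Unadjusted p-values under 0.05 were seen for 2 members, Serpina3m and Serpina3n, and for 765 of all genes. With voom on recovered reads 0 genes passed, with 776 at an unadjusted p under 0.05. Serpina1e differed by -0.06 (SE 0.94, limma adjusted p = 0.994). Serpina3m differed by -0.74 (SE 0.28, limma adjusted p = 0.593) and Serpina3n by -0.55 (SE 0.15, limma adjusted p = 0.453).

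In CR mice none of the 9 members passed between d25 and d30 either, against 0.142% of all tested genes in limma. An unadjusted p under 0.05 was seen for 4 members, Serpina1c, Serpina1e, Serpina3k and Serpina3n, and for 917 of all genes. Serpina1e differed by -3.85 (SE 0.94, limma adjusted p = 0.171). The lowest of its CR livers at d25, at 111 FPKM, lay below the highest at d30, at 121 FPKM, so the groups overlapped. Serpina3k differed by -0.53 (SE 0.18, limma adjusted p = 0.402), Serpina1c by -0.42 (SE 0.17, limma adjusted p = 0.490) and Serpina3n by -0.48 (SE 0.15, limma adjusted p = 0.327). For 1 gene in 3 against 3 livers, the smallest p that exact permutation allows is 0.1.

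Within the family, the livers low in Serpina1e were also low in Serpina1c and Serpina3k. Over the 12 livers, which share the group structure, Pearson's r of log2(FPKM + 1) was 0.95 between Serpina1e and Serpina1c, 0.94 between Serpina1e and Serpina3k and 0.96 between Serpina1c and Serpina3k. It was 0.84 between Serpina1b and Serpina1d and -0.69 between Serpina1b and Serpina1e. In CR mice at d25, replicate 3 had the lowest value of all 3 genes and replicate 2 the highest. In CR mice at d30, replicate 1 had the lowest and replicate 2 the highest. In Con mice at d25, replicate 3 had the lowest value of all 3 genes. The order did not hold in Con mice at d30. There the liver highest in Serpina1e (3986 FPKM) was lowest in Serpina1c (1312 FPKM), and another was highest in Serpina1c and Serpina3k.

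**Figure D5:**
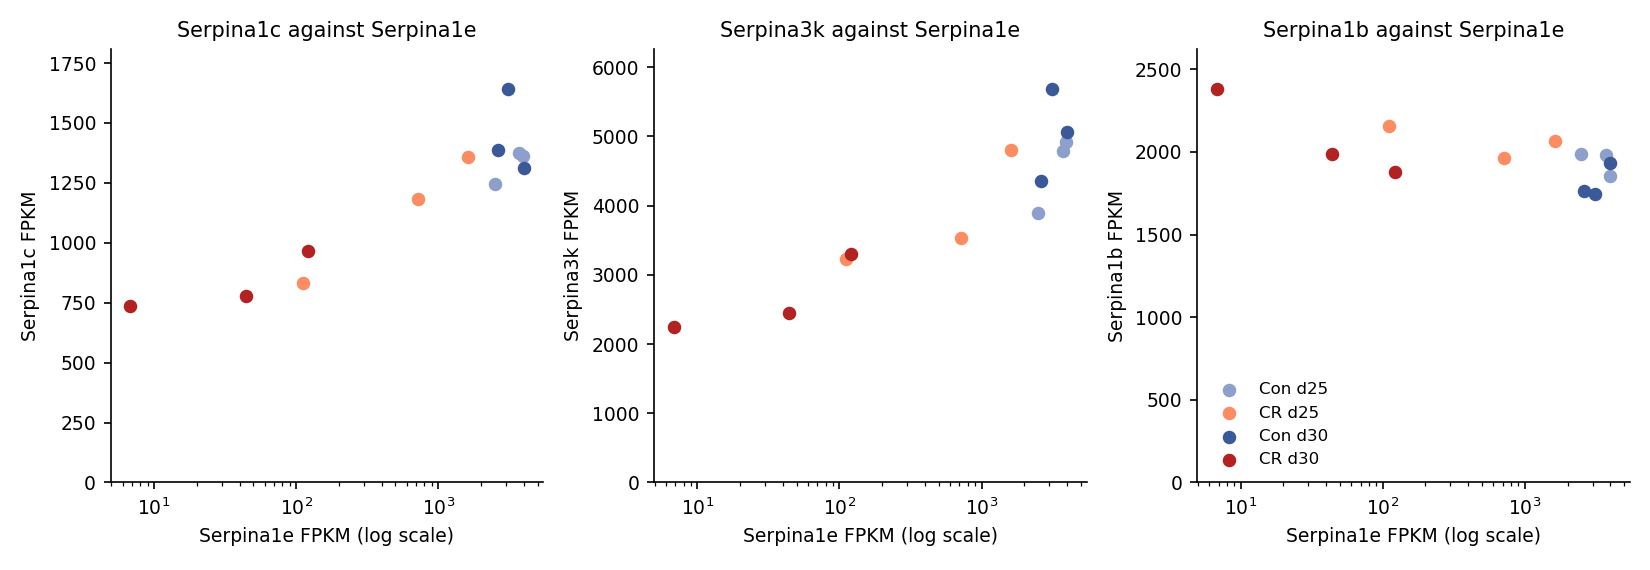
FPKM of Serpina1c, Serpina3k and Serpina1b (vertical axes, from 0) against FPKM of Serpina1e (horizontal axis, log scale) in the 12 livers, colored by group. Livers with little Serpina1e also had little Serpina1c and Serpina3k (r = 0.95 and 0.94 on the log2 scale), while Serpina1b had an r of -0.69.

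Among genes outside the family, those most like Serpina1e over the 12 livers were Elovl3, an elongase of long fatty acids (r = 0.98), Lrrc3 (r = 0.97) and Nat8f2 (r = 0.97). Elovl3 was at 46.8 ± 6.65 FPKM in Con and 17.1 ± 9.20 in CR mice at d25, and at 55.5 ± 8.98 and 2.86 ± 1.58 at d30 (SD, n = 3). Serpina1c was most like Mup3, a major urinary protein gene (r = 0.96), and the complement genes C6 and C8b (r = 0.96 each). Serpina3k was most like C6 (r = 0.96), Cldn2 (r = 0.95) and Adat2 (r = 0.94). Serpina3m was most like As3mt (r = 0.96), Sbk1 (r = 0.95) and the metallothionein gene Mt1 (r = 0.95). The closest genes were Sugp1, Slc27a1 and 1600002H07Rik for Serpina3n (r = 0.91 to 0.94), and Gfer, Neurl2 and Dennd6b for Serpina1a (r = 0.94 to 0.95). They were 9430015G10Rik, Lime1 and Mau2 for Serpina1b (r = 0.92 to 0.94), Apoc3, Zdhhc8 and Tprn for Serpina1d (r = 0.85 to 0.87), and Lgals2, Madd and Wdr5 for Serpina3g (r = 0.84 to 0.86). These values describe 12 livers of 4 groups.

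The other clade A serpins split by direction. Of 15 such genes in the table, 5 passed the filter. At d30, 2 passed both criteria and rose, where 2.21% of all tested genes were called in either direction. Serpina6, the corticosteroid-binding globulin gene, rose from 106 ± 12.1 to 257 ± 72.6 FPKM at d30 (SD, n = 3 each, log2 fold change 1.24, SE 0.23, limma adjusted p = 0.00394) and also rose at d25. Serpina7, the thyroxine-binding globulin gene, rose from 2.88 ± 0.99 to 9.24 ± 1.34 FPKM at d30 (log2 fold change 1.42, SE 0.18, limma adjusted p = 0.000486). Serpina12, the vaspin gene, passed the filter through Con livers alone, so its direction was fixed by the filter and is given without a test. It was at 3.44 ± 0.86 FPKM in Con and 0.739 ± 0.257 in CR mice at d30 (log2 fold change -1.34, SE 0.23). Over both time points it was at least 1.40 FPKM in the Con livers and at most 0.954 in the CR livers. Serpina10 and Serpina11 did not pass, with log2 fold changes of -0.24 and -0.41 at d30. The near relatives Serpina3a, Serpina3b, Serpina3c, Serpina3h, Serpina3i and Serpina3j averaged at most 0.189 FPKM in any group.

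The counts of the next lists stand against 1.48% of all tested genes called at d25 and 2.21% at d30. At such shares short lists hold few calls or none, so low counts say little about them. Of 23 tested secreted inhibitors of other families, 0 passed at d25 and 1 at d30. This was Timp3, an inhibitor of metalloproteases, with a log2 fold change of 1.08 (SE 0.12, limma adjusted p = 0.000156). Of 22 genes for export and quality control in the endoplasmic reticulum, through which α1-antitrypsin is secreted, none passed at either time point, with medians of -0.0014 and -0.08. Of 4 tested proteases listed as targets of the family, none passed. Of 19 hepatocyte transcription factors, 1 rose at d30, Cux2, with a log2 fold change of 1.98 (SE 0.54). It was above 1 FPKM in every CR liver and at most 0.145 in Con mice at d30. Without the CR livers it would not have passed the filter, so it is given without a test. Cux2 averaged 0.114 FPKM in Con and 3.62 in CR mice at d30, and 1.16 and 3.97 at d25. Of the 19, 4 lay above 0 and 15 below at d30, with a median of -0.15. The 18 other than Cux2 did not pass both criteria. Among them, Cebpa had a log2 fold change of -0.75 (SE 0.15, limma adjusted p = 0.00559) at d30, past the adjusted p and short of the fold. Hnf4a was at 0.08 and Stat5b at -0.11.

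Acute-phase genes, the class to which Serpina3n belongs, moved both ways. Of 22 tested, 1 rose and 1 fell at d25, and 3 rose and 2 fell at d30. Of all tested genes, 1.48% were called in either direction at d25 and 2.21% at d30. At d30 Orm3 rose by 2.53 (SE 0.45, limma adjusted p = 0.00328) and Orm2 by 2.02 (SE 0.28, limma adjusted p = 0.000757) on the log2 scale, and Saa1 fell by 2.01 (SE 0.41, limma adjusted p = 0.00668). Interferon response genes were read because Serpina3g is known to be induced by interferon. Of 17 tested, 5 fell at d30 and none rose, against 2.21% of all tested genes called in either direction. Ifit1 was among them, with a log2 fold change of -1.24 (SE 0.17). It was above 1 FPKM in every Con liver and at most 0.625 in CR mice at d30. Without the Con livers it would not have passed the filter, so it is given without a test. Macrophage markers summed to 37.9 to 62.7 FPKM in Con and 23.1 to 28.8 in CR mice at d25, and to 32.3 to 48.0 and 29.7 to 41.8 at d30, and all 6 were above 0 in every liver. B cell markers summed to 0.93 to 1.77 FPKM in the Con and 0.155 to 0.778 in the CR livers. Their part in the values of Serpina3g and Serpina3f was not tested.

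Genes with higher expression in male liver were read as a further list. Of 12 tested genes, 7 fell at d25 and 12 at d30, with medians of -1.44 and -3.46. Of all tested genes, 1.48% were called in either direction at d25 and 2.21% at d30. At d30 Selenbp2 fell by 6.13 (SE 0.88, limma adjusted p = 0.000974), Mup20 by 4.40 (SE 0.49, limma adjusted p = 0.000174) and Mup21 by 4.32 (SE 0.56, limma adjusted p = 0.000506) on the log2 scale. Of 14 female-biased genes in the table, 7 passed the filter and the other 7 were not tested. Cyp2b9 and Cyp2b13 were among those that passed it through CR livers alone. Their direction was fixed by the filter and is given without a test. Cyp2b9 was at most 0.477 FPKM in the Con livers, 19.7 to 60.6 in CR mice at d25 and 121 to 196 in CR mice at d30. Cyp2b13 was at most 0.08 FPKM in the Con livers and in CR mice at d25, and at 1.49, 2.92 and 41.0 FPKM in CR mice at d30. The lists were written with earlier results of these livers known, and all mice were male.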

How the data were processed

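The data were liver RNA-Seq libraries from 12 male mice, 3 for each diet and time point. The authors sequenced paired-end reads of 100 bases on a single lane and mapped them to mm10 with BWA, and the submitters' processing notes also name CASAVA 1.8.2, FastQC and DESeq2. The authors deposited FPKM, computed by HOMER over the exons of 1 transcript per gene, without further scaling between libraries. FPKM are not counts, so DESeq2 was not used here. Whole reads recovered from low FPKM (100% within a tolerance of 0.1 read) gave the depth, which limits genes with few reads.

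log2(FPKM + 1) was fitted with limma 3.58.1 in R 4.3.3 for 10593 genes, in 1 model of the 4 groups with a trend on expression. Calls needed a log2 fold change of at least 1 and, after Benjamini-Hochberg adjustment, a p below 0.1. Tests are 2-sided. Fold changes on this scale understate those of low genes. Nothing says that the mice were pooled, and p-values measure the spread between them.

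The members and gene lists were chosen with earlier results of these data known. Named genes are the members, up to 3 called genes per list with the largest change, and the 3 genes most correlated with each member. Some results that this rule or the motif search gave are not reported here. Hnf4a, Cebpa and Stat5b, the near relatives of Serpina3 and the 2 uncalled clade A serpins were named after their values were seen. Labels do not tell the Con mice at d30 apart. At d25, deviations of same-numbered Con and CR mice from their group means had r = 0.37, 0.31 and 0.11. For different numbers r was -0.29 to 0.01. With 3 mice per group these r depend on each other and do not settle whether mice were paired. An alternative model held the number as a block. Other alternatives were the pseudocount, the filter, the scaling, the moderation, voom on recovered reads, single time points and leaving out each liver.

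Promoters came from RefSeq (GRCm38.p6) and transcripts from GENCODE M21 (GRCm38), aligned with mafft 7.526. The longest open reading frame was taken as coding sequence. Python 3.11.15 with numpy 2.4.6, pandas 2.3.3 and, for plots, matplotlib 3.10.9 did the rest.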

Additional observations from a re-analysis of the deposited data

How the results depend on the processing

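The number of members called at d25 was 1. It was 0 with a pseudocount of 0.1, with a filter at an FPKM of 0.1, with no filter on low FPKM and with TPM, and 0 to 1 when single livers were left out. It stayed at 1 with median-ratio scaling, quantile normalization, no trend, voom, only the livers of d25, and the replicate block. At d30 the number was 1 in every such setting and 1 to 3 when single livers were left out, and Serpina1e was called in all 21 alternatives, with a log2 fold change between -7.41 and -5.42. For the difference between the CR effects and for Con mice between time points the number was 0 throughout. For CR mice between time points it was 0 to 1 when single livers were left out, with Serpina1e called without CR replicate 3 at d25 (-4.94). In Con mice the difference of Serpina1e between time points ranged from -0.264 to 0.0841 when single livers were left out, and turned positive without 3 of the Con livers in turn (0.0681, 0.0239 and 0.0841). The cause was not tested.

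The replicate block within d25 changed no member's call and gave 171 called genes, against 157. In CR mice the numbers did not pair the livers (r = -0.38, 0.30 and 0.08), and a replicate block gave 26 called genes against 15 and called 0 members. No paired analysis was possible at d30 because the Con columns carry no number in the labels. Over all genes, 276 were called at d25 and 385 at d30 with a pseudocount of 0.1, and 302 and 422 with voom, against 157 and 234. Of the called genes, 56.7% were higher under CR at d25, against 45.7% and 44.4% in these settings. In CR mice between time points, 15 genes were called, against 6 with a filter at 0.1 and 3 with none. The depth limits Serpina3f and Serpina3g, with 8 to 95 reads per liver.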
